A study of Mus musculus with 4 samples.

Results

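The clusters described here are stretches of RNA with grouped reads, called in AGO2 immunoprecipitates. Their midpoint lay in the coding sequence (CDS) of a protein-coding mouse transcript on the same strand. They numbered 31649 of 86106 clusters in the AGO2 immunoprecipitate (IP) labelled Fmr1 knockout and 13973 of 46860 in the wild-type IP. Most of them were not enriched over input by the limits given below. A further 13973 of 46862 regions lay in coding sequence in a deposited table of the series, which compares both IPs region by region. The libraries are AGO2 eCLIP, in which protein and RNA are crosslinked, AGO2 is precipitated and the bound fragments are sequenced beside a size-matched input. One IP and one input came from whole brain of C57BL/6 mice with the label FMR1 ko, and one IP and one input from whole brain of wild-type C57BL/6 mice, all at postnatal day 0. The knockout allele, the number of brains in a library and any pooling are not given in the sources used here. With 1 IP library per genotype there was no replicate check, so a difference between the libraries compares those libraries and no test across genotypes was made.

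AGO2 holds a miRNA, whose seed (its bases 2 to 8) pairs with a matching site in the target RNA, and it recruits TNRC6 proteins that bring in deadenylases and decapping factors. Most studied sites lie in 3' UTRs, where no ribosome passes, but sites in coding sequence also bind AGO2. In the developing brain let-7 and miR-9 are abundant miRNAs tied to the passage from progenitor to neuron. FMRP, the product of Fmr1, is an RNA-binding protein that associates with the coding sequence of long neuronal mRNAs.

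The depth of the libraries was read from the authors' scores. Input depth over IP depth was 1.918 for the knockout-labelled pair and 6.337 for the wild-type pair, and between the IPs the knockout-labelled over wild-type depth was 2.278. Read counts per cluster were recovered from the scores for 81.3% of knockout-labelled and 99.3% of wild-type coding clusters. The median coding cluster with recovered reads held 4 IP reads in either library, and 32.7% of knockout-labelled and 41.7% of wild-type coding clusters held exactly 3. Neuron markers had coding clusters in 7 of 7 genes in either library. Given as knockout-labelled and then wild type, progenitor markers had them in 6 of 6 and 5 of 6. Oligodendrocyte-lineage markers stood at 4 of 5 and 2 of 5, astrocyte and endothelial markers each at 3 of 4 and 0 of 4. Erythroid markers stood at 2 of 5 and 1 of 5. Microglial and choroid plexus markers stood at 1 of 4 and 1 of 3 in either library. Over all genes, 6854 and 4645 had a coding cluster. In bulk tissue, fewer cells of a type, less RNA per cell and the depth of the library cannot be told apart.

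The sequences below are among the coding peaks enriched in both libraries with the highest scores, 1 per gene, from single coding exons, read 5' to 3' on the transcript strand of mm10 (GRCm38). They are shown for their high scores and, in 4 of 6, for a seed match. A high score does not mean the most reads or the largest ratio over input. Capitals mark matches to a miRNA seed of 9 families: the complement of bases 2 to 8, or of bases 2 to 7 followed by A. Mature sequences are from RefSeq (GRCm38.p6), with the seed in capitals.
let-7a-5p: uGAGGUAGuagguuguauaguu
miR-9-5p: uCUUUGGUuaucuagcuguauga
miR-125b-5p: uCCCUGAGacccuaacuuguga
miR-16-5p: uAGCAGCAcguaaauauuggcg
Kdm6b, chr11:69406332-69406437, minus strand: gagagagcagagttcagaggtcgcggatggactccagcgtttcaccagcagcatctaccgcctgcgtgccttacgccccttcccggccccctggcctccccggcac
Zfhx3, chr8:108956652-108956737, plus strand: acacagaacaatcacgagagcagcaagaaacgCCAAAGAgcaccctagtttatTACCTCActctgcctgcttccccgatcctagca
Tnrc6a, chr7:123188788-123188888, plus strand: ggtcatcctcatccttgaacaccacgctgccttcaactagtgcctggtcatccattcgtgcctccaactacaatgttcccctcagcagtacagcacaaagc
Kmt2b, chr7:30575393-30575448, minus strand: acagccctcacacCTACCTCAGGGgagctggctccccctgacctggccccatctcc
Prr36, chr8:4213968-4214044, minus strand: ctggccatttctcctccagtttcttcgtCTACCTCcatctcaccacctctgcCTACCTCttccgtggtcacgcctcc
Rpl14, chr9:120574122-120574214, plus strand: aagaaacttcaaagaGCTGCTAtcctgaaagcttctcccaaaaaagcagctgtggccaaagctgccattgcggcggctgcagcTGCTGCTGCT

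In Zfhx3, which encodes a homeodomain transcription factor of neurons, a miR-9 match is followed by a let-7 match. In Kmt2b, a histone H3 lysine 4 methyltransferase, let-7 and miR-125 matches overlap in one run. Prr36 holds 2 let-7 matches. The peaks of Kdm6b, a histone H3 lysine 27 demethylase, and of Tnrc6a, the AGO2 partner, hold no match of the 9 families. A further planned family, miR-124, was not analysed here.

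A cluster counted as an enriched peak where the authors listed a -log10 p of at least 3 and a log2 of IP over input of at least 3. By this rule 523 coding clusters on 434 genes were enriched in the knockout-labelled library and 2957 on 1819 genes in wild type. That was 1.65% of knockout-labelled coding clusters (95% interval 1.51 to 1.80), against 3.08% of all its clusters, and 21.2% of wild-type coding clusters (20.5 to 21.8), against 24.1% of all its clusters. Intervals are exact binomial (Clopper-Pearson) ones and cover counting error only. Coding clusters passed less often than 3' UTR clusters in either library: 9.01% of 3' UTR clusters were enriched in the knockout-labelled library and 37.2% in wild type. Intron clusters stood below coding ones, at 1.09% in the knockout-labelled library and 18.4% in wild type.

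Of all enriched peaks, 19.7% lay in coding sequence in the knockout-labelled library (18.2 to 21.3) and 26.2% in wild type (25.4 to 27.0). With the same number of peaks from each library the shares were 19.7% and 21.0%. The order turned round at a log2 limit of 1, with 29.9% in the knockout-labelled library and 27.5% in wild type, and limits of 5 and 4 gave 8.82% and 20.8%. Depth of the IP and of the input differed between the libraries in the same comparison, and their part in it cannot be told apart from genotype. Enriched coding peaks had a median of 13 IP reads and a median width of 72.0 bases in the knockout-labelled library, against 6 reads and 45.0 bases in wild type.

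Enriched coding peaks were spread along the whole coding sequence, with the most at its ends. Position was taken on 1 transcript per cluster, as spliced bases from the start codon over coding length, and cut into bins of 10% of that length, each of which would hold 10% of clusters by even spacing. In the knockout-labelled library the first bin held 17.4% of enriched peaks (91 of 523) and the last bin 13.4%, while the bins between held 7.07% to 9.75%. In wild type the first bin held 11.3% and the last 11.4%, and the others 8.76% to 10.4%. Coding clusters that were not enriched had 11.4% in the first bin and 9.34% in the last in the knockout-labelled library, and 11.5% and 9.50% in wild type. In the last bin the enriched peaks stood above 10% and the other clusters below it in either library.

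**Figure D1:**
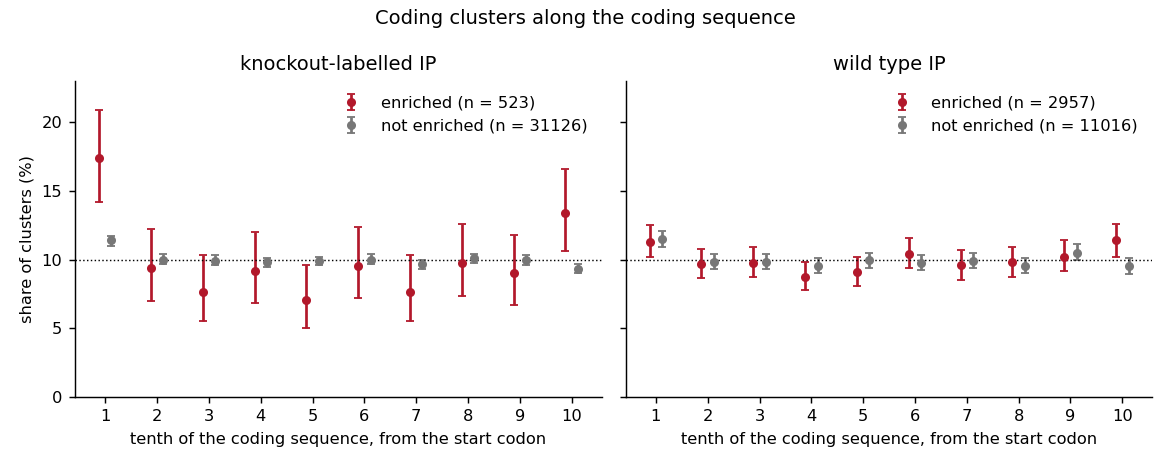
Share of coding clusters (y axis, percent) in each bin of 10% of the coding sequence (x axis, from the start codon) for enriched peaks and for other clusters, with 95% binomial intervals, in the knockout-labelled IP (left) and the wild-type IP (right). The dotted line is the 10% of even spacing; the first bin of the knockout-labelled enriched peaks stands highest, at 17.4%.

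At the start, 10.3% of knockout-labelled enriched peaks (7.85 to 13.3) lay within 100 bases of the start codon, against 5.69% of its other coding clusters. In wild type the values were 7.14% (6.23 to 8.12) and 6.28%. Enriched peaks were also richer in G and C, with a median of 59.2% in knockout-labelled peaks against 55.1% in its other coding clusters, and 55.9% against 54.5% in wild type. The part of base composition in these positions was not tested.

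The distance to the stop codon was shorter for enriched peaks. The median was 1164 spliced bases for enriched peaks and 1229 for other coding clusters in the knockout-labelled library, and 995 and 1148 bases in wild type. Within 500 bases of the stop codon lay 27.7% of knockout-labelled enriched peaks (23.9 to 31.8) against 22.9% of the others, and 29.5% of wild-type enriched peaks (27.8 to 31.2) against 25.1%. Enriched peaks also lay on shorter coding sequences, with a median of 2679 against 2814 bases in the knockout-labelled library and 2343 against 2586 in wild type. Even spacing over the same coding sequences would place 26.0% of knockout-labelled and 28.0% of wild-type enriched peaks within 500 bases, values inside the intervals just given for the knockout-labelled and the wild-type peaks. Close to the stop codon, within 100 bases, the shares were 6.12% and 6.05%, against 5.32% and 5.88% by even spacing. The last coding exon held 23.5% of knockout-labelled enriched peaks against 12.4% of the other clusters, and 21.9% against 14.7% in wild type.

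Of the 9 families, let-7 had the most matches in enriched coding peaks. In the knockout-labelled library 79 of 523 enriched coding peaks held one, 15.1% (12.1 to 18.5), against 0.668% of all same-length windows outside clusters in the same coding sequences. In wild type 206 of 2956 held one, 6.97% (6.08 to 7.95), against 0.496% of windows. Coding clusters that were not enriched held a let-7 match in 1.89% and 1.94%. Among the 7-letter words seen at least 15 times in enriched peaks, 162 in the knockout-labelled library and 2111 in wild type, the let-7 words CTACCTC and TACCTCA ranked 1 and 2 by their excess over the rest of the same coding sequences. CTACCTC was 29.3 times as frequent inside knockout-labelled peaks as outside clusters, and 17.4 times in wild-type peaks.

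Other families followed at lower shares. A miR-9 match stood in 8.03% of knockout-labelled enriched peaks (5.85 to 10.7; 1.55% of windows) and in 5.48% of wild-type ones (4.69 to 6.36; 0.986% of windows). A miR-15/16 match stood in 6.88% and 3.65%, against 1.95% and 1.3% of windows, and this word lies in CTG repeats such as the one that ends the Rpl14 peak. A miR-125 match stood in 5.93% and 2.47%, against 1.02% and 0.655%. The families miR-17, miR-30 and miR-128 had intervals that included the share of windows in the knockout-labelled library, where 3, 5 and 10 peaks held a match. In wild type their shares were 0.846%, 0.710% and 1.59%, and the shares of windows, 0.299%, 0.208% and 0.798%, lay below their intervals. Matches of miR-26 and miR-181 stood in 1.72% and 1.91% of knockout-labelled peaks, against 0.591% and 0.574% of windows. In wild type they stood in 0.609% and 0.744%, against 0.352% and 0.466%. Any of the 9 families had a match in 39.2% of knockout-labelled enriched peaks (35.0 to 43.5; 8.46% of windows) and in 21.6% of wild-type ones (20.1 to 23.1; 5.41% of windows).

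**Figure D2:**
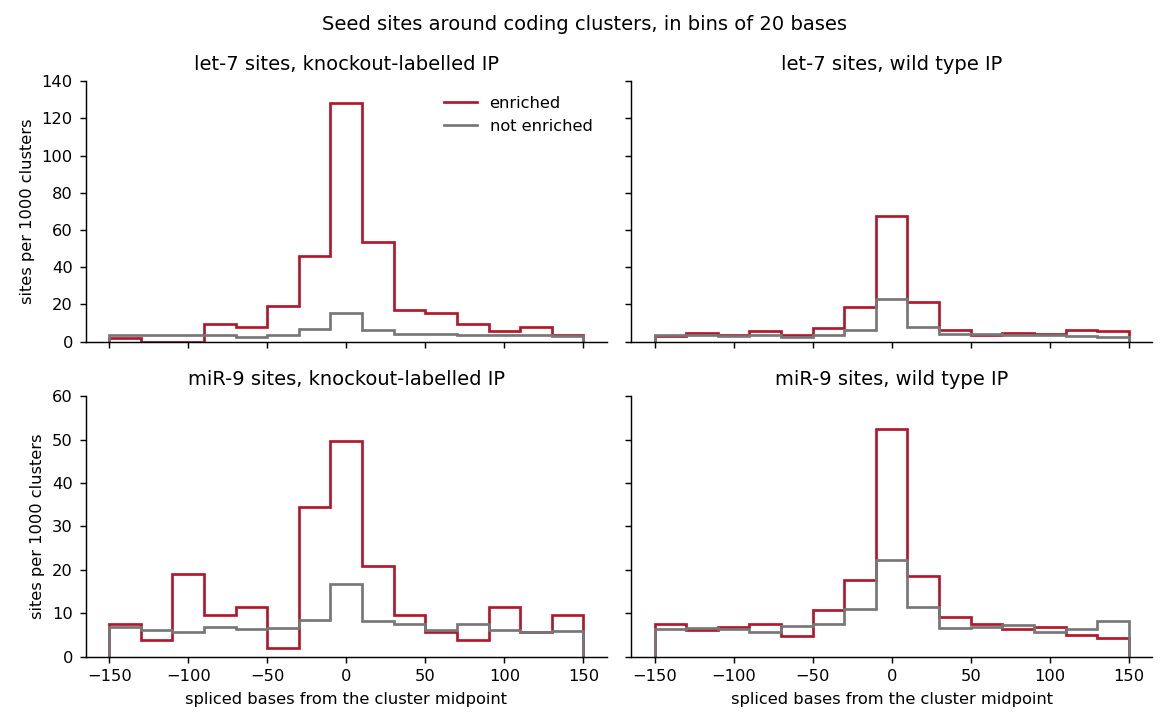
Number of let-7 (top) and miR-9 (bottom) seed matches per 1000 coding clusters (y axis) by spliced distance from the cluster midpoint (x axis, bases, bins of 20), for enriched peaks and other clusters of the knockout-labelled IP (left) and the wild-type IP (right). Within 20 bases of the midpoint there were 197 let-7 matches per 1000 knockout-labelled enriched peaks and 94.7 per 1000 wild-type ones.

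The matches were centred on the peaks. Within 20 bases of the midpoint, let-7 matches numbered 197 per 1000 knockout-labelled enriched peaks, against 9.56 per 1000 at 100 to 120 bases away. In wild type the densities were 94.7 and 9.13 per 1000. The miR-9 densities were 88.0 and 21.0 per 1000 in the knockout-labelled library and 75.1 and 11.8 in wild type.

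The share with a match also climbed with the authors' score. For let-7 it was 1.45% at a -log10 p below 1, 7.56% from 3 to 5, 10.8% from 5 to 10, 20.5% from 10 to 20 and 29.7% (11 of 37 clusters) from 20 on, among knockout-labelled coding clusters above their input. In wild type these shares were 0.622%, 3.80%, 10.1%, 18.6% and 25% (18 of 72). The share of windows lay between 0.304% and 0.901% in all bins of either library.

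**Figure D3:**
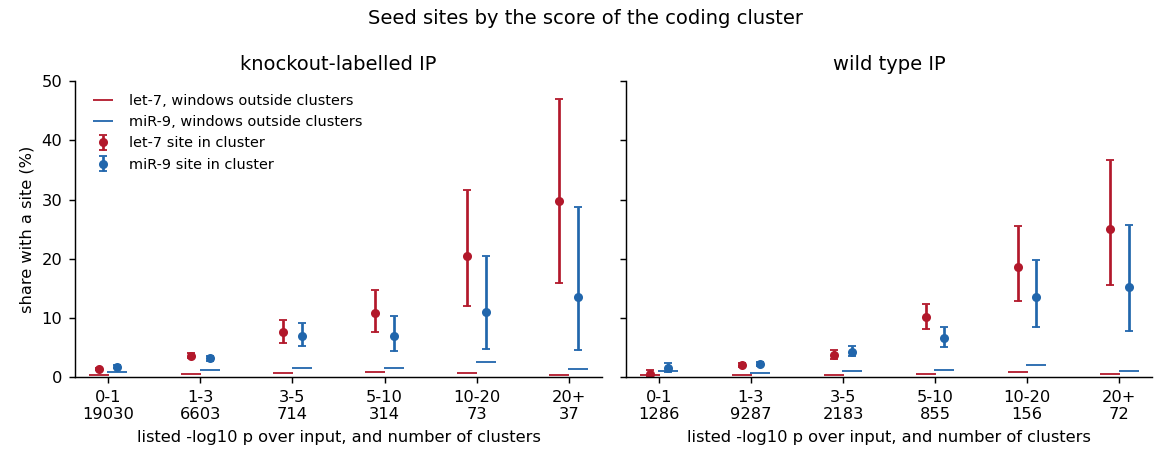
Share of coding clusters with a let-7 or miR-9 match (y axis, percent, with 95% binomial intervals) by the listed -log10 p over input (x axis, number of clusters below each bin), in the knockout-labelled IP (left) and the wild-type IP (right). Horizontal marks give the share of same-length windows outside clusters; the let-7 share climbs to 29.7% in the knockout-labelled and 25% in the wild-type library.

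Further high peaks with a let-7 match, enriched in both libraries, are shown for the bases around the match. Capitals again mark seed matches of the 9 families.
Hmgcs1, chr13:119701084-119701216, plus strand: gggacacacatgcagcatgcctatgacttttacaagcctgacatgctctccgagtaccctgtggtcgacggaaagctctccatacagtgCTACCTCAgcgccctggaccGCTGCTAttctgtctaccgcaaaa
Med14, chrX:12685843-12685941, minus strand: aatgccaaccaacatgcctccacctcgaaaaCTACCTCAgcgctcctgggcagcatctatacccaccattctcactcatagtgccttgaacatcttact
Nova2, chr7:18958210-18958297, plus strand: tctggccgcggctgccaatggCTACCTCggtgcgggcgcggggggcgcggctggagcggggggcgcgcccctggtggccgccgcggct
Dusp8, chr7:142082796-142082884, minus strand: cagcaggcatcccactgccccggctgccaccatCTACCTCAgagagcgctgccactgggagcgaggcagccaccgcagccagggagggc

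Hmgcs1 encodes the cytosolic HMG-CoA synthase of cholesterol synthesis, Med14 a Mediator subunit, Nova2 a neuronal splicing regulator and Dusp8 a MAP kinase phosphatase. The word CTACCTC began at the first base of a codon in 18.6% of its 70 places in knockout-labelled peaks, at the second in 47.1% and at the third in 34.3%. Outside the peaks of the same coding sequences the shares were 17.4%, 40.2% and 42.4%, inside the intervals of the peaks. In wild-type peaks the second base had 40.1% (32.6 to 48.0), against 29.2% elsewhere.

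Of the 20 highest enriched coding peaks by -log10 p, 19 in the knockout-labelled library and 17 in wild type lay on an enriched peak of the other library. Of all knockout-labelled enriched coding peaks, 223 of 523 (42.6%) overlapped an enriched wild-type peak by at least 1 base, and of wild-type enriched coding peaks 232 of 2957 (7.85%) overlapped an enriched knockout-labelled peak. Genes with an enriched coding peak in both numbered 304. Peaks with a let-7 match were shared more often than those with none of the 9 families: 70.9% (59.6 to 80.6) against 32.7% (27.6 to 38.2) of knockout-labelled peaks, and 26.7% against 5.13% of wild-type peaks. They also held more IP reads, with medians of 18 against 13 in the knockout-labelled library and 8.5 against 6 in wild type, and the part of read depth in the overlap was not tested.

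Of the 223 shared peaks, 56 held a let-7 match and 23 a miR-9 match. Their median log2 over input was 4.03 in the knockout-labelled library and 5.25 in wild type, and it was higher in wild type for 192 of 223. The depth ratios of 1.918 and 6.337 enter these log2 values, and their part in the difference was not tested.

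**Figure D4:**
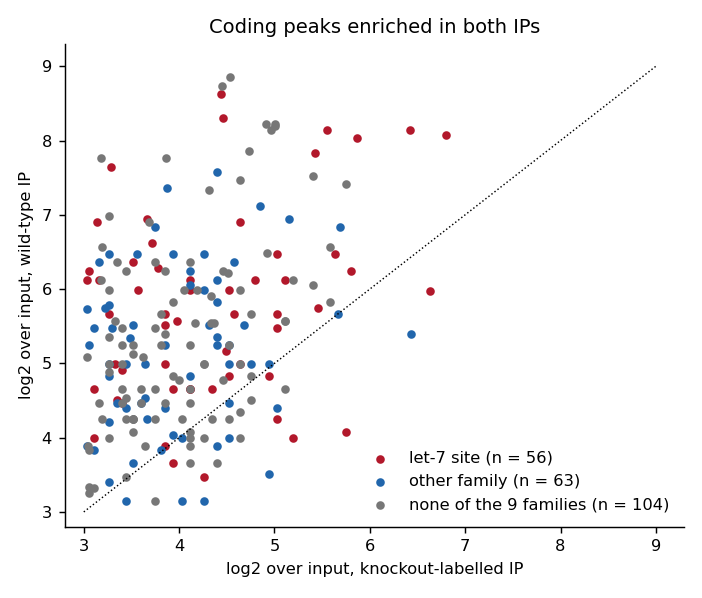
Log2 of IP over input of the 223 coding peaks enriched in both libraries, knockout-labelled IP on the x axis and wild-type IP on the y axis, coloured by seed match. The dotted line is equality, and 192 of the 223 peaks lie above it.

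The Kdm6b peak was listed at the largest -log10 p of 400 in either library, as were peaks of Rpl14, Pcdh1 and Prr36 in wild type. Its log2 over input was 4.96 in the knockout-labelled library and 8.14 in wild type, where it held 311 IP reads against 7 input reads. It lies in coding exon 7 of 20, some 3783 bases before the stop codon. The Zfhx3 peak held 233 IP reads against 4 input reads in the knockout-labelled library (log2 6.80), and its strongest wild-type piece 127 against 3 (log2 8.07). It lies in the last of 9 coding exons, 404 bases before the stop codon. The Tnrc6a peak held 168 IP reads against 10 in the knockout-labelled library (log2 5.01) and 185 against 4 in wild type (log2 8.20), in coding exon 20 of 24. The Kmt2b peak held 134 IP reads against 3 in either library, with a log2 of 6.42 in the knockout-labelled library and 8.14 in wild type. The Rpl14 peak, in a ribosomal protein gene with a CTG-rich end, held 111 reads against 6 in the knockout-labelled library and 136 against 7 in wild type.

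The Pcdh1 peak, in a protocadherin gene, held 241 IP reads against 20 in the knockout-labelled library (log2 4.53). In wild type it held 220 against 3 (log2 8.86), and its midpoint also lies in a 3' UTR of another transcript. At these wild-type counts the listed -log10 p was 184, against 400 for Prr36 with 89 reads against 9 (log2 5.97). The listed p therefore does not rank peaks by log2 or by reads.

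The exception among the 20 highest knockout-labelled peaks lies in the first coding exon of Pclo, which encodes the presynaptic scaffold Piccolo, 42 bases from the start codon. It held 231 IP reads against 49 input reads in the knockout-labelled library (log2 3.18), and the wild-type cluster there had a log2 of 2.58.

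Genes with the most coding clusters had long coding sequences. Macf1, a linker of microtubules and actin, had 145 coding clusters in the knockout-labelled library and 65 in wild type. Dst, its relative dystonin, had 122 and 70. Dync1h1, the heavy chain of cytoplasmic dynein, had 81 and 33, and Mycbp2, a ubiquitin ligase, had 80 and 27. Ank2, an ankyrin of the neuronal membrane skeleton, had 75 and 53, and its relative Ank3 had 75 and 34. Lrp1, a lipoprotein receptor, had 75 and 16, Sptan1, alpha-II spectrin, 73 and 42, Huwe1, a ubiquitin ligase, 66 and 10, and Pclo 64 and 47. Enriched clusters numbered 2 of Macf1 in the knockout-labelled library and 7 in wild type, and 1 and 5 of Dst. Over all coding clusters 1.65% were enriched in the knockout-labelled library and 21.2% in wild type. Nothing particular to these genes is drawn from the knockout-labelled counts. Per 1000 coding bases Macf1 had 6.57 and 2.95 clusters, against medians of 3.11 and 2.16 over genes with at least 5 clusters.

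**Figure D5:**
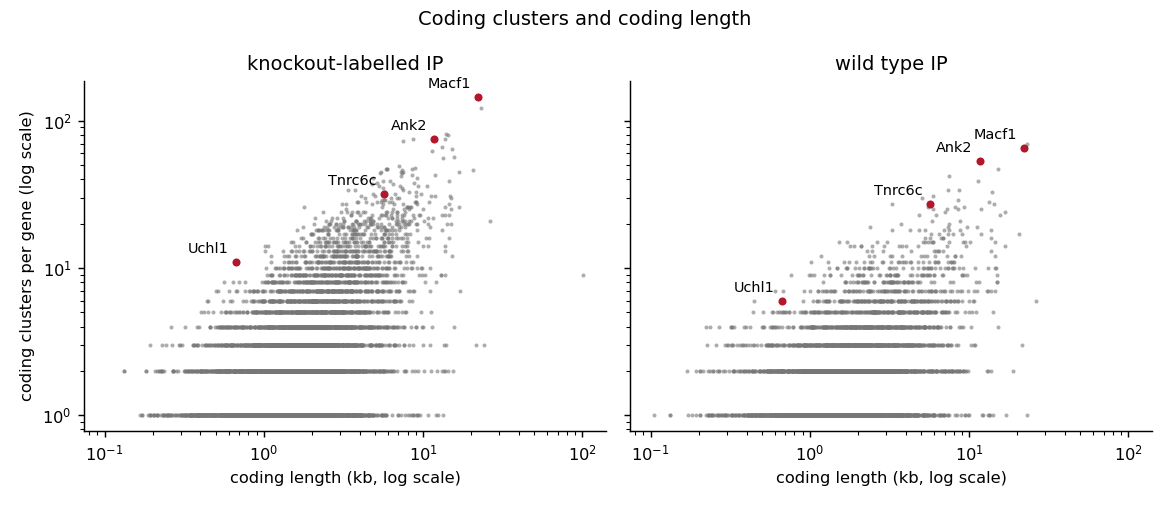
Coding clusters per gene (y axis, log scale) against coding length in kilobases (x axis, log scale), one point per gene, in the knockout-labelled IP (left) and the wild-type IP (right). Macf1 stands at the upper right with 145 and 65 clusters; Tnrc6c had 32 and 27.

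Among genes with at least 5 clusters, those highest per length had short coding sequences. A short gene enters this ranking only at a high density, so nothing about length is drawn from it. In the knockout-labelled library Uchl1, a neuronal ubiquitin hydrolase, had 16.4 clusters per 1000 coding bases (11 clusters), none of them enriched. In wild type Ywhae, a 14-3-3 protein, had 11.8 (9 clusters, 2 enriched). Some neighbouring clusters are pieces of one: merged where they abut in the spliced sequence, the 11 of Uchl1 became 5.

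Among genes with the most enriched coding peaks were partners of AGO2 and regulators of transcription. Tnrc6c, whose product binds AGO2 and recruits deadenylases, had 5 enriched coding peaks in the knockout-labelled library and 18 in wild type. With abutting pieces joined these were 4 and 12, and in the knockout-labelled library Tnrc6a, Zfhx4 and Prrc2b also had 4. Its strongest knockout-labelled peak held 77 IP reads against 7 input reads in coding exon 10 of 21, and the 18 wild-type peaks ran from 12% to 97.4% of the coding sequence. Tnrc6a had 4 and 8. Dicer1, the nuclease that cuts miRNA precursors, had 1 and 7, and its highest peak in either library held a let-7 match in coding exon 20 of 26, with 25 IP reads against 2 in the knockout-labelled library and 16 against 2 in wild type. Bcl11b, a transcription factor of cortical neurons, had 0 and 9, and Tubb5, a beta tubulin, 0 and 8. Their coding clusters numbered 7 and 10 for Bcl11b and 10 and 9 for Tubb5. Of all coding clusters, 1.65% were enriched in the knockout-labelled library and 21.2% in wild type. With so few knockout-labelled clusters at that share, nothing is drawn from the counts of 0. Most of the Bcl11b peaks rested on 5 to 8 IP reads against 1 input read. None of the Bcl11b peaks held a match of the 9 families. Beta tubulin genes are near-identical in stretches, so the counting of reads among them is uncertain.

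Members of the listed gene groups were read against all genes with coding clusters, of which 6.33% had an enriched coding peak in the knockout-labelled library and 39.2% in wild type. Long genes have more clusters and so more chances of one, and nothing particular to a group is drawn from the counts. Of 19 genes of the silencing complex and deadenylation, 17 had coding clusters in the knockout-labelled library and 4 an enriched one (Tnrc6a, Tnrc6b, Tnrc6c and Dcp2), against 11 and 8 in wild type. Of 32 FMRP-bound long brain mRNAs, 31 had coding clusters in either library, and 17 had an enriched one in the knockout-labelled library and 23 in wild type. These held 1139 and 567 clusters in all. Of 28 chromatin regulators, all had coding clusters, and 10 and 23 had an enriched one. Axon guidance genes had an enriched peak in 1 of 25 and 12 of 19, motor proteins in 1 of 17 and 10 of 17, and ribosomal proteins in 1 of 12 and 3 of 5.

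Genes with an enriched coding peak also had an enriched 3' UTR peak in 18.2% of knockout-labelled cases (14.7 to 22.2) and 29.4% of wild-type ones (27.3 to 31.6). Among genes whose coding clusters were not enriched, the shares were 7.44% and 20.1%.

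Predicted G-quadruplexes, 4 runs of at least 3 G with loops of 1 to 7 bases, were rare near coding peaks. One lay within 50 bases of 17 of 510 knockout-labelled enriched peaks, 3.33% (1.95 to 5.28), against 0.525% of windows, and of 27 of 2928 wild-type ones, 0.922% (0.609 to 1.34), against 0.440%. High-scoring examples from the knockout-labelled library (Kdm6b, Kmt2a) and from wild type (Marcks) are shown to place the motif, and any seed match, within the peak. Capitals mark the motif and the seed matches.
Kdm6b, chr11:69404759-69404864, minus strand: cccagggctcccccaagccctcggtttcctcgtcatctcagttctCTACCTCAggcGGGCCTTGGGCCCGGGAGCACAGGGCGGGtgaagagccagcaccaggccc
Kmt2a, chr9:44881048-44881168, minus strand: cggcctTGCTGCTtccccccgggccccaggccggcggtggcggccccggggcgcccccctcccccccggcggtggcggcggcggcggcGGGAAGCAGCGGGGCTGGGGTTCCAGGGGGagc
Marcks, chr10:37136380-37136504, minus strand: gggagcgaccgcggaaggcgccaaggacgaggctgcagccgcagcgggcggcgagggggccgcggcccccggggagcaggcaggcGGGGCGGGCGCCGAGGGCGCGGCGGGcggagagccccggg

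In this second Kdm6b peak a let-7 match stands just before the G runs. It held 52 IP reads against 2 input reads in the knockout-labelled library (log2 5.64) and 42 against 3 in wild type (log2 6.47). The Kmt2a peak held 44 against 6 in the knockout-labelled library (log2 3.81), and the Marcks peak 42 against 24 in wild type (log2 3.47). With runs of at least 2 G, the motif lay near 36.5% of knockout-labelled enriched peaks against 32.3% of windows, and near 26.4% of wild-type ones against 26.9%.

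In the authors' deposited table, whose log2 is wild-type IP over knockout-labelled IP, 301 coding regions on 234 genes were higher in wild type at a -log10 p of at least 3 and a log2 of at least 1. That was 2.15% of coding regions, against 3.39% of all regions of the authors' deposited table. From the recovered reads, 17 coding regions on 9 genes were lower in wild type by the same limits, 0.122% of coding regions against 0.177% of all regions with reads. The regions of the authors' deposited table are those called in the wild-type IP; the median log2 was 1.77 over all coding regions and 0.08 over the 1344 with at least 20 reads of both IPs.

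Among these 1344 regions of the authors' deposited table, those with a let-7 match had a median log2 of 0.73 (quartiles 0.10 and 1.19, n = 114) and those with a miR-9 match 0.51 (quartiles -0.20 and 1.10). Those with no match of the 9 families had a median of -0.06 (quartiles -0.66 and 0.60, n = 1014). Over all 3616 regions of the authors' deposited table with at least 20 reads, coding or not, the median was 0.56 (quartiles -0.19 and 1.26). By place, regions within 500 bases of the stop codon had a median log2 of 0.45 (n = 324) in the authors' deposited table, and those within 100 bases of the start codon -0.06 (n = 90). None of the 17 lower regions held a let-7 or a miR-9 match. Of the 1344 regions, 114 held a let-7 match, so few would be looked for among 17. The 17 also lie on only 9 genes, and nothing is drawn from their lack of a match.

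The highest coding regions by p were those of Kdm6b, Tnrc6a and Rpl14, at log2 1.08, 1.32 and 1.47 in the authors' deposited table. Rps6ka3, which encodes the kinase RSK2, had 6 knockout-labelled and 26 wild-type reads in a region with miR-9, miR-125 and miR-30 matches, and the authors' deposited table lists a log2 of 3.30. Atp1b2, a sodium pump subunit, had 2 knockout-labelled and 21 wild-type reads at a let-7 match, and the authors' deposited table lists a log2 of 4.58. The lowest by p were on Pclo, Map1b, Ttc3, Hist1h1d, Ank3, Apc, Kif1a, Son and Prrc2c. Pclo, 83 bases from its start codon, had 184 knockout-labelled and 16 wild-type reads, and the authors' deposited table lists -2.34. Map1b, which encodes a microtubule-associated protein and whose mRNA FMRP binds, had 293 knockout-labelled and 56 wild-type reads, and the authors' deposited table lists -1.20. Ttc3, a ubiquitin ligase, had 120 knockout-labelled and 13 wild-type reads, and the authors' deposited table lists -2.02. Hist1h1d, a linker histone gene with 663 coding bases, had 71 knockout-labelled and 7 wild-type reads, and the authors' deposited table lists -2.15.

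Fmr1 itself had coding clusters in both libraries, none enriched: 3 in the knockout-labelled library, in coding exons 15, 16 and 17 of 17, and 1 in wild type, in exon 15. The exon 16 and exon 17 clusters of the knockout-labelled library each held 7 IP reads, and the wild-type cluster 5. The labels do not name the allele, and some knockouts leave a transcript, so these clusters do not check the genotype.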

How the data were processed

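AGO2 eCLIP libraries were made from whole brain at postnatal day 0. Per the labels' protocols, the authors trimmed adapters with Cutadapt 1.15, mapped to repeats and then to mm10 with STAR 2.6.0c, removed duplicates with UMI tools (version given as 5.2), called clusters per IP with CLIPper 1.4 and scored them against the input with their own script. The deposited values per cluster are a −log10 p, never above 400, and a log2 ratio of IP over input. How the series table was made is not stated in the sources used here. Its wild-type reads equal those of the wild-type file in 100% of 42616 regions.

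Reads were recovered by setting each log2 to a ratio of whole reads and meeting the listed p within 1%; clusters listed at 0 or 400 in every table gave none. The recovery was tested on simulated data. Midpoints were placed on GENCODE vM21 (all 21 chromosomes of the build held their regions). Each cluster took 1 transcript: APPRIS principal, then the longest CDS. Sites were counted in peaks and in every same-length window of the same CDS outside clusters. Named genes were, per library, the 10 with most coding clusters or enriched coding peaks and the 10 highest coding peaks. Added to them were the 10 highest and lowest series regions, list members with most clusters, and Fmr1. Others named with a printed sequence were chosen by score, outside chromosome 18. Members and lists were chosen with earlier results of these data known. No replicates exist, so no test was made across libraries. Python was used with numpy, pandas and scipy. Some results that the naming rule covers are not reported here.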

Additional observations from a re-analysis of the deposited data

How the results depend on the processing

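No paired analysis was possible because each genotype had 1 IP library and the results come from no test. Of 87 alternative values, 43 stayed inside the main 95% interval (counts: within 1.5 times) and 44 moved. Limits of 5 and 4 in place of 3 and 3 gave, for the knockout-labelled and wild-type libraries, 8.82% and 20.8% of enriched peaks in coding sequence, 0.332% and 6.00% of coding clusters enriched, 47.6% and 37.3% in the last 33.3% of the coding sequence, 67.6% and 9.65% shared, and 52.4% and 32.4% with a seed match; 37.1% of knockout-labelled peaks lay within 500 bases of the stop codon. A log2 limit of 1 gave 29.9% and 27.5% in coding sequence, 3.6% and 23.4% enriched, 23.4% of knockout-labelled peaks within 500 bases, 14.6% of wild-type peaks shared and 30.8% of knockout-labelled peaks with a match. In wild type, any base in coding sequence gave 27.5%, equal numbers of peaks 21.0%, and merging of abutting regions 23% in coding sequence and 24.1% with a match. Clusters with 10 or more IP reads were enriched in 12.6% and 63.5%, and 37.1% of such wild-type peaks lay in the last 33.3%. One cluster per gene put 33.1% of wild-type peaks within 500 bases. Within 300 bases lay 17.4% and 18.2%, and within 1000 bases 46.1% and 50.1%. Overlap with any cluster was 57.4% and 45.1%. Sites of 8 bases stood in 14.5% and 7.41%, and 50 more bases to each side gave 49.0% and 34.5%. G runs of 2 gave 36.5% and 26.4%, and no flank 1.34% and 0.338%. With 10 or more reads Macf1 kept 54 knockout-labelled clusters and Dst 6 wild-type ones, and Pclo (56) and Map1b (30) led. In the authors' deposited table, limits of 5 and 2 left 21 higher coding regions, and centring on the median of all regions 142. The cause of these shifts was not tested. Merging (except for clusters per gene), leaving out regions in another transcript's 3' UTR, complete coding sequences only and the ranking of 7-letter words were added after the data had been seen. Enriched coding peaks rest on a median of 13 IP reads in the knockout-labelled library and 6 in wild type.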
